A study of Mus musculus with 14 samples.

Results

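The salt-inducible kinases Sik1, Sik2 and Sik3, the CREB coactivators Crtc1, Crtc2 and Crtc3, and the histone deacetylases Hdac4 and Hdac5 were followed in livers of mice on 2 diets. These 8 symbols were looked up by name in the deposited results table and found under 9 Ensembl identifiers, because Hdac4 had 2, of 37681 identifiers in the table of counts. All 9 passed the filter on low counts, which left 17223 genes to test. The genes were selected on the diet log2 fold changes of these same libraries, so their diet values are given as a description without a test. Polyadenylated liver RNA was sequenced from 14 mice, 1 library each, to compare transcript levels after feeding with much fat and sucrose (high fat/high sucrose, HFHS, n = 7) and with little of both (low fat/low sucrose, LFLS, n = 7). No genotype, transgene or drug is named for either diet, and the sources used here give neither strain, sex and age nor how long the mice were fed. Titles of HFHS 5 to 7 and LFLS 5 to 7 begin with the number 2, and those of HFHS 1 to 4 and LFLS 1 to 4 with the number 1. What this title number marks is not given.

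Salt-inducible kinases are relatives of the energy sensor AMPK and are switched on by the tumour suppressor kinase LKB1. They phosphorylate CRTC coactivators and class IIa histone deacetylases such as HDAC4 and HDAC5, which are then held in the cytoplasm by 14-3-3 proteins. In the fasted liver, glucagon acts through cAMP and protein kinase A (PKA) to inhibit the kinases, so that CRTC2 and its relatives enter the nucleus, bind CREB at cAMP response elements (CRE) and switch on genes of glucose production. Much of this control is by phosphorylation and location, which transcript levels do not measure.

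CREB binds the palindrome TGACGTCA and, less tightly, its shorter core TGACG. All promoters at hand for the set were searched for both on both strands. Each full palindrome also contains the core. The Sik3 and Hdac4 promoters are shown because both transcripts were lower on HFHS, and the Crtc3 promoter because that transcript split within LFLS. Sequences come from RefSeq (build GRCm38.p6), run from 250 bases before the start of the gene to 50 bases from it, and are printed on the strand of the gene with each core in capitals (CGTCA where it lies on the other strand).
Sik3, chr9:46012570-46012869, plus strand: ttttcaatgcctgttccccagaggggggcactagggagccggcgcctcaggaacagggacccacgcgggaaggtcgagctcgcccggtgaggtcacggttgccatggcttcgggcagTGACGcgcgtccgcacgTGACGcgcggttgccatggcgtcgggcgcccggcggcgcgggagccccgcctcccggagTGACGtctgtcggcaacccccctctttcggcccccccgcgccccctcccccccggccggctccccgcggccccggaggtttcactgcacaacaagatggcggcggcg
Hdac4, chr1:92180292-92180591, minus strand: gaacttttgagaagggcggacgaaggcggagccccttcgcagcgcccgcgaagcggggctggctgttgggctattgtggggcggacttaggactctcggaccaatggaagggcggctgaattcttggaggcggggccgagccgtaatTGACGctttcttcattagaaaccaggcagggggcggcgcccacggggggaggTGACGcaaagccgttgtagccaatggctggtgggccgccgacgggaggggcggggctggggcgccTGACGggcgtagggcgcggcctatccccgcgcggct
Crtc3, chr7:80688828-80689127, minus strand: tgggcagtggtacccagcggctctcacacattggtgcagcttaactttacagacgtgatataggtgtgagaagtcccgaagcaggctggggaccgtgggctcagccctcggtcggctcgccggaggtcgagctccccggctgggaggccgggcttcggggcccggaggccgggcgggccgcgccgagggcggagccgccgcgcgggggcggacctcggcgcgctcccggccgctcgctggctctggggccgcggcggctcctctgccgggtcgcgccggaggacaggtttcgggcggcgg
The Sik3 promoter held 3 cores, at 133, 116 and 57 bases before the start. The Hdac4 promoter also held 3, at 103 and 51 bases before the start and 15 bases after it. Sik2 and Hdac5 had 2 each, and the windows of Crtc1 and Crtc3 held none. Promoters were at hand for 6 of the 8 genes, leaving Sik1 and Crtc2 without one here, and none of the 6 held the full palindrome. Of 32851 promoters of this length 20.8% had at least 1 core, 5.01% at least 2, 1.03% at least 3, and 1.79% the full palindrome. A match of letters is no measurement of binding.

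The libraries held 18.2 M to 45.4 M counts on HFHS and 18.3 M to 52.8 M on LFLS (M, mega). They differed in how strongly a gene's level followed its GC content. The correlation across genes between GC content and a library's deviation from the gene mean, called its GC tilt here, lay between -0.415 and 0.0513 on HFHS. It was -0.366 to -0.252 in LFLS 5 to 7 and 0.215 to 0.591 in LFLS 1 to 4. The mitochondrial share of counts was 4.24 to 5.10% on HFHS and 1.39 to 4.91% on LFLS, with LFLS 1 lowest. Hepatocyte markers dominated every library, with 8 of 8 tested and a summed level of 58611 to 103023 CPM (counts per 1 M counts) on HFHS and 74283 to 120682 CPM on LFLS. Skeletal muscle markers summed to at most 5.69 CPM in any library. Exocrine pancreas markers summed to 14.7 to 413 CPM on HFHS and 17.2 to 1530 CPM on LFLS, with LFLS 2 highest. No marker of the 11 lists stood at the lowest count in all libraries.

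All 9 identifiers had a lower mean on HFHS than on LFLS, from a log2 fold change of -0.56 for Crtc3 and -0.55 for Sik3 to -0.09 for Sik2 and the second Hdac4 identifier. The median log2 fold change over the 9 was -0.31, against -0.01 over all genes tested. Of the 9, 2 had an adjusted p under 0.05 in the test across all genes (Sik3 and the first Hdac4 identifier), where 2.81% of all genes did. In 1 of the 9, Sik3, all HFHS libraries were below all LFLS libraries, which held for 0.795% of all genes. Since the choice of genes used this contrast, nothing is read from these counts. In bulk tissue, fewer cells that hold a transcript and less of it per cell cannot be told apart.

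**Figure D1:**
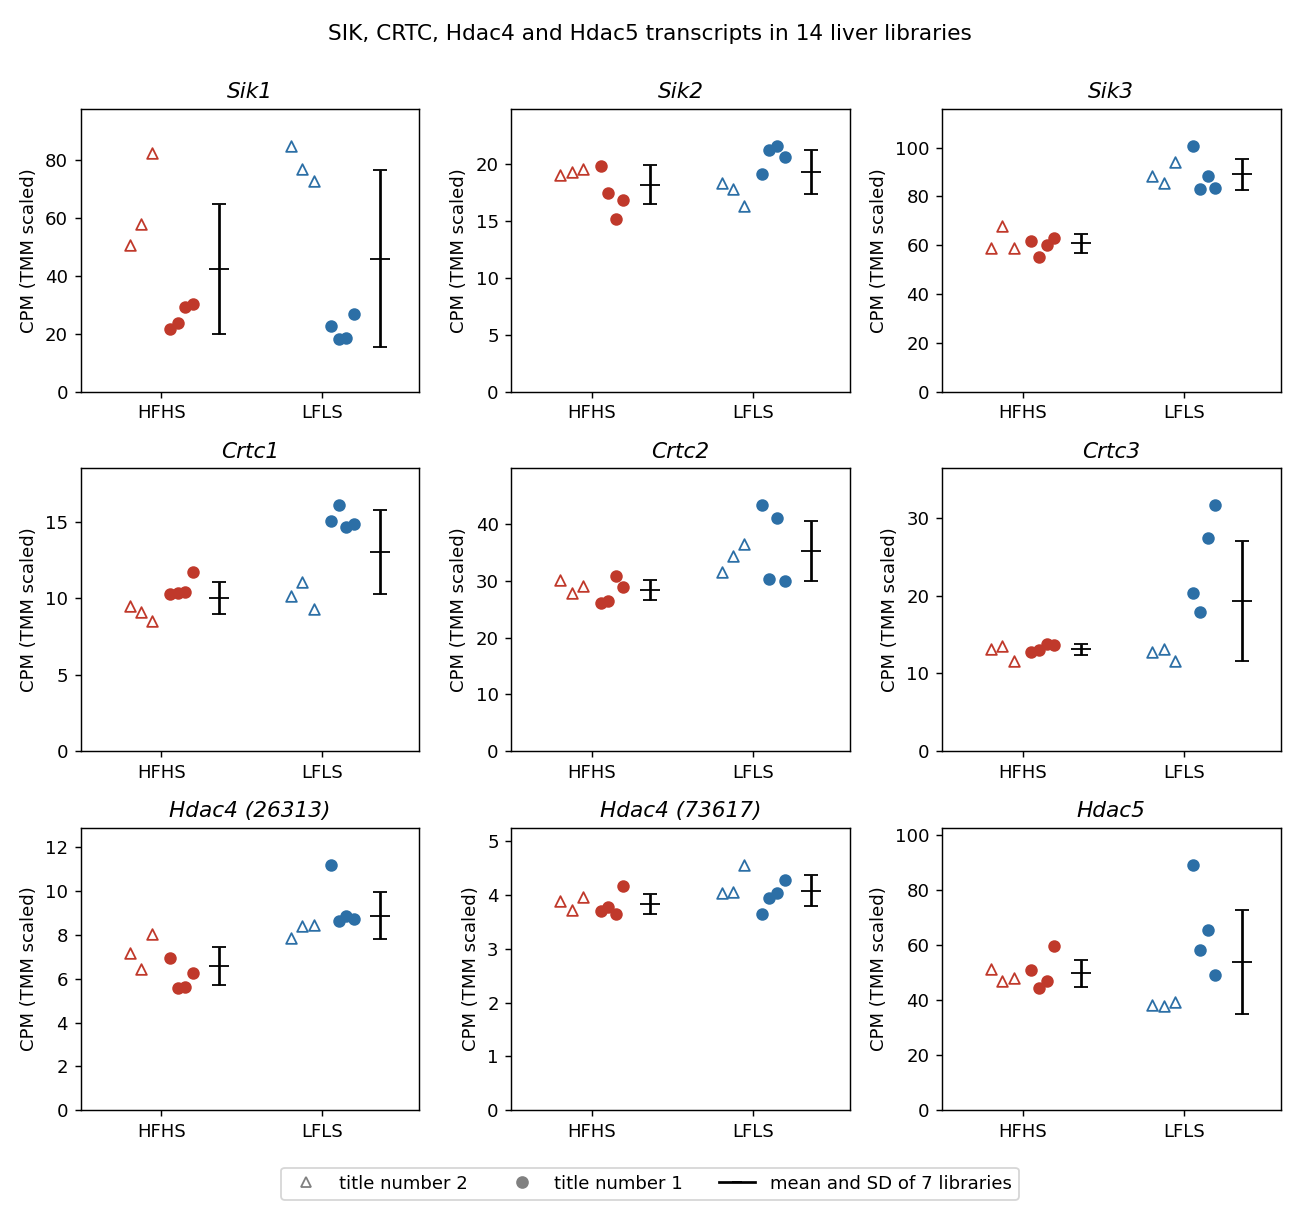
Level of each identifier (CPM scaled by trimmed means, TMM) in the 7 HFHS libraries (red) and the 7 LFLS libraries (blue), with open triangles for title number 2, filled circles for title number 1 and a bar for the mean and SD of each diet. Hdac4 panels carry the last digits of their identifiers. Sik3 separates the diets, with HFHS at 55.1 to 67.7 CPM and LFLS at 83.2 to 101 CPM, and Sik1 separates the title numbers.

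Sik3 (ENSMUSG00000034135, chromosome 9), which encodes a broadly expressed kinase needed for normal lipid handling in mice, had no overlap between the diets. Its lowest, median and highest HFHS libraries had 55.1, 60.2 and 67.7 CPM, against 83.2, 88.2 and 101 CPM on LFLS. The highest HFHS library thus stayed under the lowest LFLS library. The mean was 60.7 ± 3.97 CPM on HFHS and 89.1 ± 6.33 CPM on LFLS (SD, n = 7 each), a fold of 0.682 and a log2 fold change of -0.55 ± 0.07 (SE). The difference was -0.52 ± 0.09 among libraries of title number 2 and -0.55 ± 0.09 among those of number 1. It stayed between -0.58 and -0.43 over all 28 other settings, and was -0.44 ± 0.10 with per-library offsets for GC content and length, a setting chosen after the data were seen. Leaving out any 1 library gave -0.58 to -0.52.

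Sik1 (ENSMUSG00000024042, chromosome 17) encodes the kinase whose own gene is induced by cAMP through CREB. Its lowest, median and highest libraries had 21.8, 30.2 and 82.5 CPM on HFHS and 18.4, 27.0 and 85.0 CPM on LFLS. Both diets spanned nearly the same range, with 3 high and 4 low libraries in each. The means were 42.3 ± 22.4 CPM on HFHS and 45.9 ± 30.6 CPM on LFLS (SD, n = 7 each), and the log2 fold change was -0.12 ± 0.42 (SE). It was -0.29 among number 2 libraries, 0.29 among number 1 libraries and 0.03 with the title number as a block. Sik2 (ENSMUSG00000037112, chromosome 9), a kinase that phosphorylates CRTC2 in insulin-treated mouse liver, had 15.2, 19.0 and 19.8 CPM on HFHS against 16.3, 19.1 and 21.6 CPM on LFLS. The diets overlapped over most of their range, at a log2 fold change of -0.09 ± 0.09. The sign differed between the title numbers, at 0.15 ± 0.08 among number 2 libraries and -0.23 ± 0.11 among number 1 libraries. The number 2 libraries had 19.0 to 19.5 CPM on HFHS and 16.3 to 18.3 CPM on LFLS. How many of all genes separate in this way within a title number was not worked out. In GRCm38 its exons overlap 1429 bases of Ppp2r1b on the opposite strand, and the library kit is not stated to keep strand, so reads of the 2 genes cannot be told apart there.

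Crtc2 (ENSMUSG00000027936, chromosome 3), the coactivator best known for glucagon-driven glucose production in liver, had lowest, median and highest levels of 26.1, 28.9 and 30.8 CPM on HFHS. On LFLS the levels were 29.9, 34.4 and 43.3 CPM. Of the HFHS libraries only HFHS 3 and HFHS 5 reached into the LFLS range. The mean was 28.5 ± 1.77 CPM on HFHS and 35.3 ± 5.30 CPM on LFLS, with a log2 fold change of -0.31 ± 0.10 that was -0.23 among number 2 libraries, -0.35 among number 1 libraries and -0.23 with GC and length offsets.

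Crtc3 (ENSMUSG00000030527, chromosome 7), a coactivator known for dampening catecholamine signals in mouse fat, was nearly even across HFHS and split within LFLS. It stood at 11.7, 13.2 and 13.8 CPM in the lowest, median and highest HFHS libraries, against 11.6, 17.9 and 31.7 CPM on LFLS. The number 2 libraries had 13.2, 13.6 and 11.7 CPM on HFHS and 12.8, 13.2 and 11.6 CPM on LFLS. The number 1 libraries had 12.8, 13.0, 13.8 and 13.7 CPM on HFHS and 20.4, 17.9, 27.5 and 31.7 CPM on LFLS. The pooled log2 fold change of -0.56 ± 0.20 was therefore made up of 0.04 ± 0.11 among number 2 libraries and -0.86 ± 0.17 among number 1 libraries, and was -0.37 with GC and length offsets.

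Crtc1 (ENSMUSG00000003575, chromosome 8), best known as the neuronal member, showed a similar split at a lower level. It had 8.56, 10.3 and 11.8 CPM in the lowest, median and highest HFHS libraries and 9.31, 14.7 and 16.1 CPM on LFLS. The 4 LFLS libraries of title number 1, at 14.7 to 16.1 CPM, lay above the rest, and the share of all genes with this order was not worked out. The log2 fold change was -0.38 ± 0.13, with -0.16 among number 2 libraries, -0.49 among number 1 libraries and -0.21 with GC and length offsets.

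Hdac5 (ENSMUSG00000008855, chromosome 11) and Hdac4 encode class IIa deacetylases, which glucagon sends to the nucleus of mouse hepatocytes, where they help activate FOXO factors. Hdac5 had lowest, median and highest levels of 44.6, 48.1 and 59.7 CPM on HFHS against 38.1, 49.2 and 89.4 CPM on LFLS. The LFLS libraries lay on both sides of the HFHS ones, with those of title number 2 below (38.3, 38.1 and 39.3 CPM). The diet difference was 0.34 ± 0.07 among number 2 libraries, -0.35 ± 0.17 among number 1 libraries and -0.12 ± 0.17 over all libraries, where GC and length offsets gave 0.09.

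The first Hdac4 identifier (ENSMUSG00000026313, chromosome 1) had 5.57, 6.45 and 8.05 CPM in the lowest, median and highest HFHS libraries, against 7.85, 8.64 and 11.2 CPM on LFLS. Of the HFHS libraries only HFHS 7, at 8.05 CPM, stood above the lowest LFLS library. The mean was 6.58 ± 0.879 CPM on HFHS and 8.88 ± 1.08 CPM on LFLS (SD, n = 7 each), a fold of 0.740 and a log2 fold change of -0.43 ± 0.11. It was -0.19 among number 2 libraries, -0.60 among number 1 libraries and -0.32 with GC and length offsets. The second identifier (ENSMUSG00000073617), with 3.65 to 4.17 CPM on HFHS and 3.64 to 4.57 CPM on LFLS, differed by -0.09 ± 0.09. It is missing from the GENCODE M21 annotation used here, so how reads were divided between the 2 is uncertain.

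**Figure D2:**
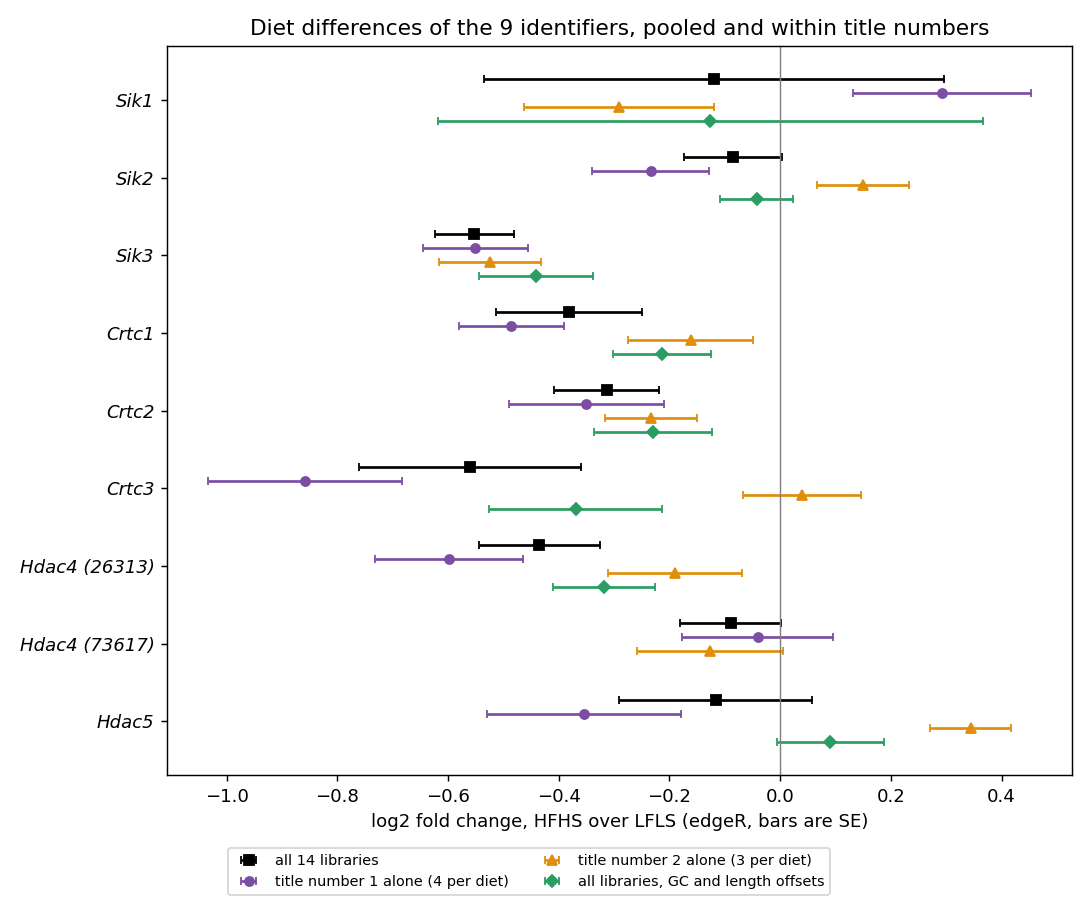
Log2 fold change of HFHS over LFLS for the 9 identifiers, with bars of 1 SE, over all libraries (squares), within title number 1 (circles) and number 2 (triangles), and with GC and length offsets (diamonds, not available for the second Hdac4 identifier). Sik3 lies at -0.52 within number 2, -0.55 within number 1 and -0.44 with the offsets, whereas Crtc3 lies at 0.04 within number 2 and -0.86 within number 1.

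Per kilobase of exon (lengths from GENCODE M21, not the annotation of the counts), 4 genes stood well above the others. On HFHS the means in CPM per kilobase were 8.25 ± 4.37 for Sik1, 6.95 ± 0.432 for Crtc2, 6.52 ± 0.426 for Sik3 and 5.67 ± 0.566 for Hdac5. On LFLS they were 8.95 ± 5.96 for Sik1, 8.63 ± 1.29 for Crtc2, 9.56 ± 0.679 for Sik3 and 6.15 ± 2.15 for Hdac5 (SD, n = 7 each). Within each diet the ranges of neighbours in this order overlapped. Next came Sik2 with 1.90 ± 0.180 on HFHS and 2.02 ± 0.204 on LFLS, Crtc3 with 1.33 ± 0.0752 and 1.96 ± 0.788, and Crtc1 with 0.895 ± 0.0940 and 1.17 ± 0.247. On HFHS these 3 did not overlap one another, and on LFLS each overlapped its neighbour. Hdac4 was lowest, at 0.416 ± 0.0556 CPM per kilobase on HFHS and 0.561 ± 0.0681 on LFLS. Crtc2 made up 75.7 ± 1.65% of the summed CRTC level per kilobase on HFHS and 73.6 ± 6.75% on LFLS. Sik2 was the smallest part of the summed SIK level, at 12.0 ± 2.69% on HFHS and 10.7 ± 3.80% on LFLS. Which kinase led depended on the title number. Sik1 held 54.3 to 65.8% of the SIK sum in number 2 libraries and 23.6 to 41.5% in number 1 libraries, whereas Sik3 held 25.8 to 38.9% and 46.9 to 62.7%.

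The title number was not used in choosing the genes, and its difference (number 2 over number 1, with diet in the model) could be tested across all genes. It was large over the whole table, with 28.8% of genes called (13.9% higher and 14.8% lower in number 2). Sik1 rose in number 2, where the libraries had 50.6, 58.0 and 82.5 CPM on HFHS and 85.0, 77.0 and 72.8 CPM on LFLS. The number 1 libraries had 21.8, 23.7, 29.3 and 30.2 CPM on HFHS and 22.7, 18.4, 18.6 and 27.0 CPM on LFLS. Over both diets together, all number 2 libraries were above all number 1 libraries, as held for 2.76% of all genes. The fold was 2.97 and the log2 fold change 1.57 ± 0.14, with an adjusted p of 7.25e-05 (edgeR's quasi-likelihood test, Benjamini-Hochberg). Sik1 was called under all 23 other settings, at 1.45 to 1.85.

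Crtc1 and Crtc3 were lower in title number 2, and neither was called with GC and length offsets. Crtc1 had 8.56 to 11.1 CPM in number 2 libraries and 10.3 to 16.1 CPM in number 1 libraries, a log2 fold change of -0.41 ± 0.08 (Benjamini-Hochberg adjusted p 0.00442, edgeR's quasi-likelihood test). Crtc3 had 11.6 to 13.6 CPM in number 2 and 12.8 to 31.7 CPM in number 1, a difference of -0.50 ± 0.16 (adjusted p 0.0349, the same edgeR test). With GC and length offsets the values were -0.10 for Crtc1 and -0.19 for Crtc3, at edgeR adjusted p values of 0.475 and 0.443. Crtc3 also lost its call without LFLS 3, LFLS 5, LFLS 6, LFLS 7 or HFHS 7, with edgeR adjusted p values of 0.0290 to 0.110 over all single omissions. These 2 genes and Hdac5 had the highest GC contents of the set, at 56.5% for Crtc1, 57.0% for Crtc3 and 59.8% for Hdac5, against 49.3 to 55.0% for the others with a value. The part of the GC tilt in the diet and title number values was not tested beyond these offsets.

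**Figure D3:**
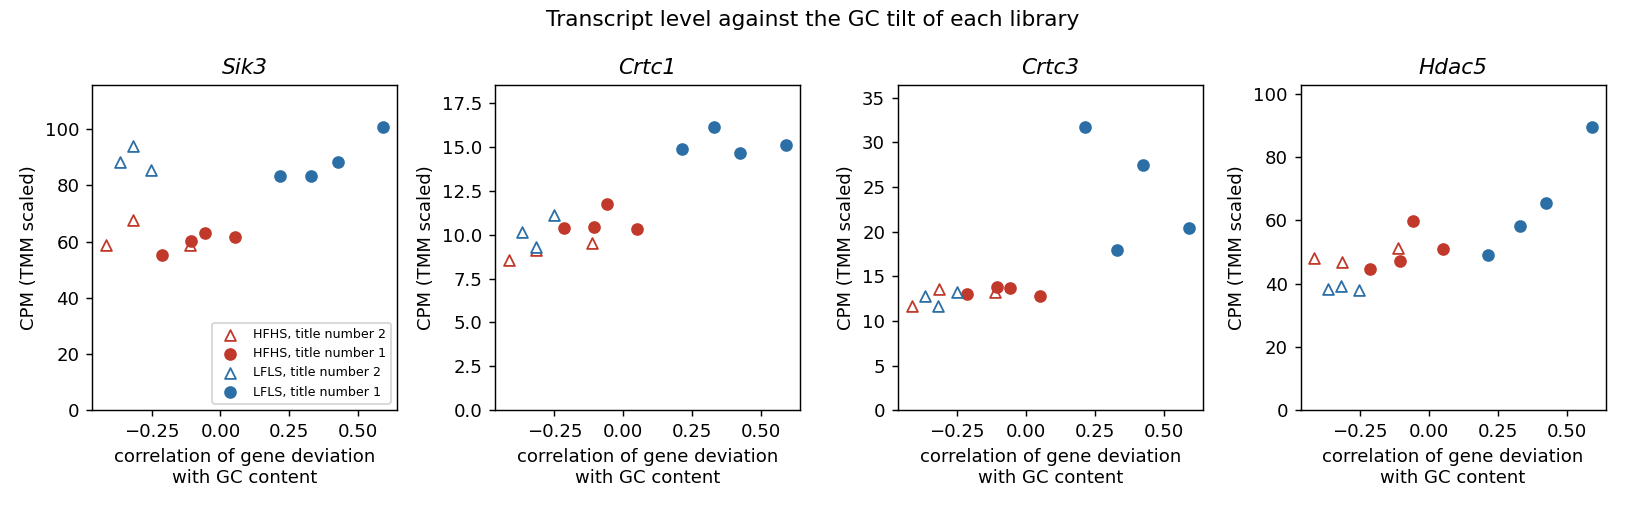
Level of Sik3, Crtc1, Crtc3 and Hdac5 (CPM, vertical) against the GC tilt of each library (horizontal, a correlation with no unit), in red for HFHS and blue for LFLS, with open triangles for title number 2 and filled circles for number 1. LFLS 1 to 4, at tilts of 0.215 to 0.591, hold the highest Crtc1 and Crtc3 levels. Sik3 lies at 83.2 to 101 CPM in LFLS libraries, with tilts of -0.366 to 0.591, and at 55.1 to 67.7 CPM in HFHS libraries, with tilts of -0.415 to 0.0513.

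Hdac5 differed by -0.40 ± 0.15 between the title numbers, with an adjusted p of 0.0519 by edgeR's quasi-likelihood test that ran from 0.0170 to 0.978 over the other settings. The value with GC and length offsets was -0.01. Sik2 (-0.04), Crtc2 (-0.02), Sik3 (0.02) and both Hdac4 identifiers (0.03 and 0.05) did not pass, and Sik3 passed only with GC and length offsets, at 0.27 (edgeR adjusted p 0.0315). Whether the diet difference itself differed between the title numbers was tested as an interaction. None of the 9 identifiers passed edgeR's quasi-likelihood test (0 called, where 0.883% of all genes were), although 6 had an unadjusted p under 0.05, and DESeq2 called 2 and limma voom 4. Shares of all genes were not worked out for the unadjusted, DESeq2 and limma voom counts, so nothing is read from them. Crtc3 had the largest interaction, 0.91 ± 0.23 with an adjusted p of 0.0613 by edgeR. DESeq2 and limma voom called it, as did edgeR without LFLS 1 or LFLS 4, and with GC and length offsets it was 0.54 (edgeR adjusted p 0.443). For Sik3 the interaction was 0.04, with an edgeR adjusted p of 0.888.

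The pathway lists were chosen with earlier results of these data known. Their diet calls and p-values are therefore a description, here and in the paragraphs that follow, and nothing is read from the counts. Kinases upstream of and related to the SIKs were not called for diet by edgeR with diet alone in the model. None of 14 genes of the LKB1 complex and PKA was called in this way (0 higher, 0 lower), although 4 had an unadjusted p under 0.05 and DESeq2 and limma voom called 1 each. The smallest p values belonged to Stradb, a pseudokinase partner of LKB1 (0.27), and Pkia, an inhibitor of PKA (0.67), with edgeR adjusted p values of 0.0703 and 0.115. With the title number as a block edgeR called Stradb higher on HFHS, at 0.27 ± 0.07 (adjusted p 0.0359), and up to 1 gene of the list was called without any 1 library. None of 15 AMPK subunits and AMPK-related kinases was called by edgeR or DESeq2, 1 had an unadjusted p under 0.05, and limma voom called 2 lower. Nuak2 (-0.30) and the AMPK subunit gene Prkab2 (0.34) came first among them, at edgeR adjusted p values of 0.222 and 0.255. For the 7 genes of 14-3-3 proteins, which hold phosphorylated CRTCs and deacetylases in the cytoplasm, no tool called any, and none had an unadjusted p under 0.05. Ywhah differed by 0.18 and Ywhab by 0.08, the smallest p values of that list (edgeR adjusted p 0.362 and 0.528). DESeq2 and limma voom called more of all genes than edgeR did. The share of all genes with an unadjusted p under 0.05 was not worked out, so nothing is read from those counts.

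Among 15 genes of the CREB family and its regulators, 2 fell on HFHS and 13 were not called, beside 1.44% of all genes called lower. Both encode the histone acetyltransferases that CREB and CRTCs recruit. Crebbp (CBP) averaged 22.4 ± 0.962 CPM on HFHS and 30.6 ± 5.32 CPM on LFLS, a log2 fold change of -0.45 ± 0.10 (edgeR's quasi-likelihood test, Benjamini-Hochberg adjusted p 0.0331). Ep300 (p300) averaged 42.0 ± 2.86 CPM on HFHS and 51.1 ± 3.52 CPM on LFLS, a change of -0.28 ± 0.07 (adjusted p 0.0475, the same edgeR test). In both genes the HFHS libraries were all below the LFLS libraries, which held for 0.795% of all genes. The gaps were narrow. The highest HFHS and lowest LFLS libraries had 23.95 and 23.99 CPM for Crebbp and 46.4 and 47.1 CPM for Ep300. Crebbp differed by -0.12 among number 2 libraries and -0.64 among number 1 libraries, and this contrast passed the interaction test (0.53, edgeR adjusted p 0.0418). Crebbp kept its call in 13 of 28 other settings and in 4 of 14 single omissions, and Ep300 in 7 of 28 and 2 of 14. With GC and length offsets Crebbp changed by -0.34 (edgeR adjusted p 0.0183), and Ep300 was not called, at -0.19. Over the whole list limma voom called 4 higher and 3 lower on HFHS. It also called more of all genes than edgeR, so nothing is read from these counts. With library totals alone or without a filter edgeR called 0. With the title number as a block, where 785 of 17223 genes were lower and 755 higher, edgeR called 2 of the list lower and 1 higher. The gene called higher, picked after its values were seen, was Ppp3ca, a catalytic subunit gene of calcineurin, which dephosphorylates CRTCs (0.32 ± 0.08, edgeR adjusted p 0.0320, against 0.217 with diet alone).

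Of 10 partners of the class IIa deacetylases, 1 rose, 0 fell and 9 were not called, beside 1.37% of all genes called higher and 1.44% lower. DESeq2, limma voom and edgeR with the title number as a block each called 1 higher and 2 lower. These settings also called more of all genes, with 755 of 17223 higher and 785 lower under the block, so nothing is read from their counts. Mef2c, a transcription factor of muscle and endothelium that these deacetylases repress, averaged 4.96 ± 1.10 CPM on HFHS and 3.50 ± 0.163 CPM on LFLS. Its HFHS libraries, at 4.14 to 7.36 CPM, lay above all LFLS libraries, at 3.21 to 3.69 CPM, which held for 0.854% of all genes. The change was 0.51 ± 0.13 (edgeR's quasi-likelihood test, Benjamini-Hochberg adjusted p 0.0475). It was called in 8 of 28 other settings and 1 of 14 single omissions, and was 0.28 with GC and length offsets (edgeR adjusted p 0.323). The summed level of 7 endothelial markers, none of them called for diet by edgeR, DESeq2 or limma voom and none with an unadjusted p under 0.05, was 285 to 412 CPM on HFHS and 261 to 493 CPM on LFLS. Stellate cell markers summed to 299 to 566 CPM on HFHS and 246 to 320 CPM on LFLS. Of these 7 markers 3 had an unadjusted p under 0.05, and limma voom called 1 higher, edgeR and DESeq2 0. No share of all genes was worked out for the unadjusted count, and nothing is read from these marker counts. The part of cell makeup in the Mef2c value was not tested.

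Of 19 measured genes known to be activated by CREB or CRTCs, 2 fell on HFHS, 0 rose and 17 were not called, beside 1.44% of all genes called lower. With the title number as a block 5 were called lower by edgeR, where 785 of 17223 genes were. The 3 added ones were Pck1 (-0.85, edgeR adjusted p 0.00537 with the block and 0.0912 without), Tat (-0.77, 0.0315 and 0.236) and Igfbp1 (-0.94, 0.0359 and 0.217). Among number 2 and number 1 libraries the differences were -0.78 and -0.88 for Pck1, -1.12 and -0.48 for Tat, and -1.53 and -0.47 for Igfbp1. Their interactions were not called (edgeR adjusted p 0.852, 0.342 and 0.179). The median log2 fold change of the list was -0.35, against -0.01 over all genes. Since this list was also chosen with earlier results of these data known, nothing is read from its diet counts or median. Irs2, the insulin receptor substrate that CREB and CRTC2 induce in fasted mouse liver, had 6.95 to 18.2 CPM on HFHS and 21.9 to 49.1 CPM on LFLS. The diets did not overlap, as held for 0.795% of all genes with HFHS below. The mean was 13.5 ± 3.55 CPM on HFHS and 30.3 ± 9.20 CPM on LFLS, a change of -1.17 ± 0.20 (edgeR's quasi-likelihood test, Benjamini-Hochberg adjusted p 0.00943), with -1.19 among number 2 libraries and -1.13 among number 1 libraries. It was called in 26 of 28 other settings, including all 14 single omissions, and was -1.03 with GC and length offsets. Trib1, a pseudokinase that restrains hepatic lipid production, averaged 63.2 ± 8.82 CPM on HFHS and 85.2 ± 9.46 CPM on LFLS. It changed by -0.43 ± 0.10 (edgeR adjusted p 0.0335), was called in 13 of 28 other settings and 5 of 14 single omissions, and was not called with GC and length offsets (-0.35, edgeR adjusted p 0.211). Of 8 hepatocyte markers edgeR with diet alone called 0, and 6 had an unadjusted p under 0.05. DESeq2 called 4 of them lower on HFHS, limma voom 2, and edgeR with the title number as a block 3. Tat stands in both lists and is 1 of these 3. Those tools and the block also called more of all genes, with 785 of 17223 lower under the block. No share of all genes was worked out for the unadjusted count, so nothing is read from these marker counts. The part of cell makeup in the lower target levels was not tested.

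**Figure D4:**
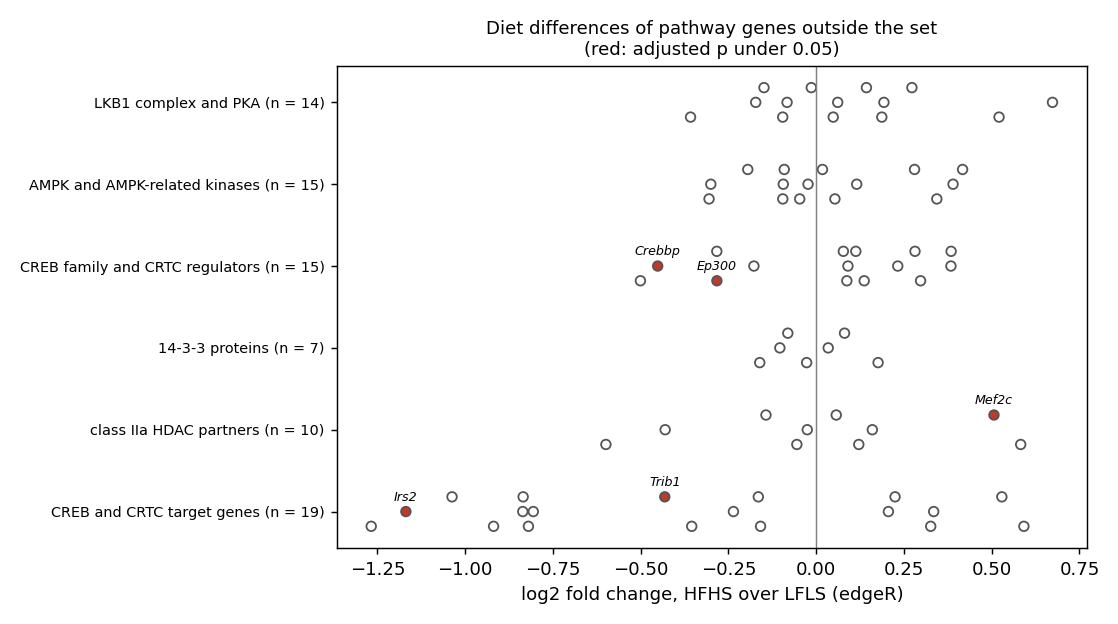
Log2 fold change of HFHS over LFLS (horizontal) for each tested gene of 6 pathway lists outside the set (1 row per list, points spread vertically only for legibility), with red for genes whose adjusted p was under 0.05. Crebbp, Ep300, Irs2 and Trib1 lie below 0 and Mef2c above it.

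The CREB and CRTC targets also differed between the title numbers, as Sik1 did. Of the 19, 10 rose and 1 fell in title number 2, beside 13.9% of all genes higher and 14.8% lower, and their median log2 fold change was 0.69, against -0.03 over all genes. The genes named here were picked after their values were seen. Igfbp1, a secreted binding protein for insulin-like growth factors that insulin suppresses, had 71.3 to 484 CPM in number 2 libraries and 34.0 to 85.2 CPM in number 1 libraries. Its change was 1.99 ± 0.26 (edgeR's quasi-likelihood test, Benjamini-Hochberg adjusted p 0.000491). The nuclear receptor gene Nr4a1 rose by 1.76 ± 0.25, Tat, which breaks down tyrosine, by 1.46 ± 0.20, and Ppargc1a, the coactivator PGC-1α of fasting metabolism, by 1.29 ± 0.23. The Ppargc1a difference itself depended on diet (interaction -1.45 ± 0.24, edgeR adjusted p 0.0340), with means of 16.4 CPM in number 2 and 11.3 CPM in number 1 on HFHS, against 41.6 CPM in number 2 and 10.5 CPM in number 1 on LFLS. For glucose production, Pck1, which makes phosphoenolpyruvate, rose by 0.84 ± 0.15 and G6pc, which releases free glucose, by 0.82 ± 0.17. The immediate early gene Junb fell by 1.26 ± 0.23 (log2). With GC and length offsets 10 rose and 1 fell, beside 8.70% of all genes higher and 4.94% lower, and 8 to 10 rose and 1 fell without any 1 library.

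Transcripts of the CREB family and its regulators were also mostly higher in title number 2. By edgeR 11 of 15 were called higher and 0 lower, beside 13.9% of all genes higher and 14.8% lower. DESeq2 called 0 lower, beside 15.9% of all genes, and limma voom 1, beside 17.2%. An unadjusted p under 0.05 was found for 14, without a share of all genes. This use of the title number was chosen after the data were seen. The count of 11 depended on scaling and filter. With GC and length offsets 4 were higher and 0 lower, beside 8.70% and 4.94% of all genes. With library totals alone, where the median of all genes moved to -0.16, 4 were higher and 2 lower, beside 6.99% and 26.2%. Without a filter 2 were higher and 1 lower, beside 3.18% and 10.4%. With edgeR's filter and TMM scaling, 3 were higher and 2 lower of 14 genes of the LKB1 complex and PKA. The counts were 3 and 5 of 15 AMPK subunits and related kinases, 1 and 0 of 7 14-3-3 genes, and 2 and 2 of 10 deacetylase partners. Crem, which encodes CREB-related activators and repressors, rose by 0.80 ± 0.18 (edgeR adjusted p 0.00743), and by 0.62 ± 0.14 with the offsets (0.0129). Kupffer cell markers moved the other way, with 4 of 7 called lower in number 2, beside 14.8% of all genes. Their summed level was 189 to 344 CPM there, against 272 to 434 CPM in number 1. Endothelial markers had 3 of 7 called lower and summed to 261 to 305 CPM in number 2 and 287 to 493 CPM in number 1. Stellate cell markers also had 3 of 7 called lower, with sums of 286 to 342 CPM in number 2 and 246 to 566 CPM in number 1. Hepatocyte markers, 2 of 8 called higher beside 13.9% of all genes, summed to 82399 to 120682 CPM in number 2 and 58611 to 103023 CPM in number 1. The part of cell makeup in the title number differences was not tested.

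**Figure D5:**
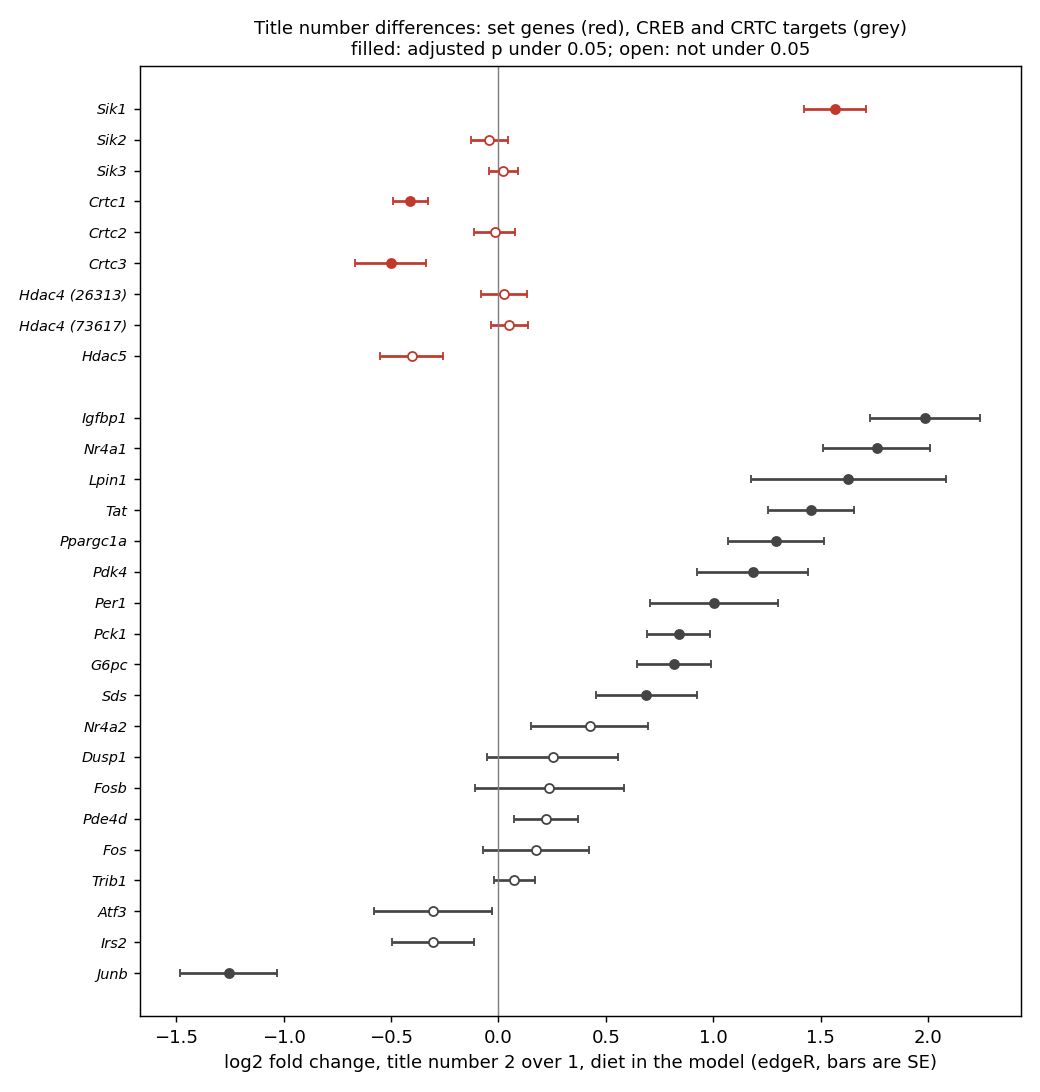
Log2 fold change of title number 2 over number 1 with diet in the model (bars, 1 SE) for the 9 identifiers (red) and 19 CREB and CRTC targets (grey), filled where the adjusted p was under 0.05. Sik1, at 1.57, lies among the targets with the largest increases, and Crtc1 and Crtc3 are lower, at -0.41 and -0.50.

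The transcripts most like each gene across the 14 libraries were listed by Pearson correlation of log2 CPM. These points share diet, title number and GC tilt, so the values describe only these libraries. Sik3 was most like Zbtb12, a zinc finger gene (r = 0.943), Brpf3, a subunit gene of a histone acetyltransferase complex (0.927), and Camsap1, a microtubule minus-end binding protein gene (0.920). Around the means of diet and title number, the same correlations with Sik3 were 0.605 for Zbtb12, 0.388 for Brpf3 and 0.616 for Camsap1. Sik1 was most like Ankrd28 (0.959), Zfyve9 (0.958) and Hspa9, the mitochondrial Hsp70 gene (0.948), and Sik2 most like Dag1, the dystroglycan gene (0.892), Pvrl1 (0.884) and Gm16599 (0.875). Of the coactivators, Crtc1 was nearest to Mogs (0.960), Sel1l3 (0.960) and Mov10 (0.954), and Crtc2 to Pcsk7 (0.940), Tcf25 (0.935) and 4632411B12Rik (0.917). Crtc3 was nearest to Hmgxb3 (0.940), Scaf4 (0.915) and Dcaf5 (0.904). Hdac5 was nearest to Kank1 (0.961), Gm16861 (0.958) and Gm5884 (0.954), the first Hdac4 identifier to Prep (0.923), Mau2 (0.903) and Wbp11 (0.902), and the second to Cyp2c67 (0.860), Trp53inp2 (0.826) and Ept1 (0.819).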

How the data were processed

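Per the labels' protocols, poly(A) RNA went into TruSeq libraries that were sequenced as 50 base single reads. The submitters' processing notes name TopHat, Bowtie, CASAVA 1.8, DESeq and build mm9. Counting tool and annotation: not given in the sources used here. As deposited, the counts were whole numbers, never below 1, with 11120 genes at 1 in all 14 libraries. The authors' deposited results table gave gene names, signal values (means of counts over DESeq size factors, all libraries), a fold ratio, its log2 and p-values, per the file headers. In the authors' deposited table the log2 values of the 9 identifiers ran from -0.69 to -0.19, with a direction that the headers do not name, and their adjusted p was 1 throughout.

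Counts were fitted with edgeR 4.0.16 in R 4.3.3 (quasi-likelihood F test, TMM scaling, edgeR's filter by diet, 17223 genes). Benjamini-Hochberg adjusted p under 0.05 was called, and the SE is the log2 fold change over the square root of F. The p-values measure the spread between separate mice. Diet was fitted alone, title number with diet, and their interaction with both. Members and lists were chosen with earlier results of these data known. Named were all members, per list the genes called for diet (or the 2 with the smallest p), and the 3 genes most like each member with a mean of at least 1 CPM. Alternatives were DESeq2 1.42.0, voom with quality weights (limma 3.58.1), other scalings and filters, 1 subtracted from each count, blocks, subsets and omissions of single libraries. GC and length offsets (GENCODE M21, 94.9% of tested genes), alone or with the block, and the use of the title number test for the lists were chosen after seeing the data. The fits were tested on simulated data.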

Additional observations from a re-analysis of the deposited data

Results flagged for a closer look

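One library stood apart within its diet. LFLS 1 had 11.2 CPM of the first Hdac4 identifier, and the next highest LFLS library had 8.84 CPM, a gap of 0.703 of the range of the 7 LFLS libraries, where Dixon's critical value is 0.568. Without LFLS 1 the log2 fold change of HFHS over LFLS for this identifier was -0.37, against -0.43 with all libraries. LFLS 1 also had the highest GC tilt (0.591) and the lowest mitochondrial share (1.39%), and their part in the Hdac4 value was not tested. Among 18 groups of 7 libraries examined in this way, 1 was marked, and chance marks about 1 in 20.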

How the results depend on the processing

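Of the 9 identifiers, 2 were called for diet. The count was 4 with limma voom, the title number as a replicate block or number 1 alone, 1 with library totals, no filter, GC offsets, the title pair as a replicate block or number 2 alone, and 0 among 6 libraries low in pancreas markers (3 HFHS, 3 LFLS). Over all genes the 484 calls became 1258 (DESeq2), 3274 (limma voom), 173 (no filter), 1540 (number block), 1032 (number block with GC offsets), 1484 (number 1), 269 (number 2) and 0 (low pancreas). With library totals they split into 379 higher and 152 lower, against 236 and 248. The 5 called pathway genes became 9 (DESeq2), 15 (limma voom), 3 (library totals), 1 (no filter), 3 (GC offsets), 12 (number block), 8 (number block with GC offsets), 8 (number 1) and 0 (low pancreas). The 40 pathway genes called for title number became 23 without a filter and 22 with GC offsets. Interaction calls among the 9 were 0, with DESeq2 2 and with limma voom 4, without a share of all genes for either of these tools. Without any 1 library the ranges were 1 to 2 for the 9 identifiers, 133 to 853 for all genes, 1 to 6 for pathway genes, 2 to 4 and 29 to 42 for the title number, and 0 to 2 for the interaction. No called value changed sign, and the cause of these changes was not tested. Pairing by title was not established, because only 4 of 7 same-title pairs correlated above 0.1 (-0.069 to 0.415) and 3 of 7 HFHS libraries correlated best with their own pair. Across diets, libraries of the same title number averaged 0.129 and those of different numbers -0.134. Counting error weighs most on Hdac4, at 3.64 to 11.2 CPM.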
